A study of Mus musculus with 18 samples.

Results

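The genotype difference at 60 days was measured in laser-captured lumbar motor neurons of mice with the human SOD1 transgene that carries the G93A mutation. The comparison holds 6 of the 18 arrays of the series, chosen by their sample titles: 3 arrays of G93A mice aged 60 days and 3 arrays of control mice aged 60 days. The control mice were the non-transgenic littermates of the G93A mice and carried no transgene. Each array came from 1 animal, and the other 12 arrays hold G93A and control mice aged 90 and 120 days. From every animal 1000 motor neurons were cut by laser from frozen sections of 10 µm after toluidine blue staining, and biotin-labelled antisense RNA was made from their transcripts. The sources used here give no transgene promoter, copy number, strain background or sex for the animals. The p-values of probe sets measure the spread between arrays within a group, 1 array per animal, estimated from all 18 arrays of the 3 ages. Each value is an array signal of 1 probe set, the group of short probes that reports 1 transcript, and log2 differences are G93A minus control after signals under 1 were set to 1.

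Superoxide dismutase 1 is the cytosolic enzyme that turns superoxide into hydrogen peroxide and oxygen, and mutations in its gene cause an inherited form of amyotrophic lateral sclerosis. Mice with the mutant human gene lose spinal motor neurons as adults and become paralysed, and 60 days lies before overt weakness in commonly used lines of this model. Lumbar motor neurons are large cells that drive the hind limb muscles through long axons, and they depend on high mitochondrial activity, axonal transport and protein quality control.

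The main difference at 60 days was a set of transcripts with higher signal in G93A motor neurons than in those of controls of that age. Of 16565 probe sets tested, 114 (0.688%) passed the test, an adjusted p below 0.05 in limma with Benjamini-Hochberg adjustment. Of these, 111 (0.67%) were higher in G93A and 3 (0.0181%) were lower. In 106 of the 111 (95.5%, against 18.1% of all tested) the controls of 60 days were the lowest of the 6 groups of age and genotype. The median log2 level of the 111 was 5.56 in those controls and 7.39 to 8.37 in the other groups. That is in part given by the choice of the probe sets. A gene said below to have risen had a higher signal in G93A than in controls of 60 days. The higher ones included Far1 and Etnk1 of ether lipid and phospholipid synthesis, the developmental regulators Ptch1 and Id2, the actin regulators Enah, Marcks and Marcksl1, the dehydrogenase complex subunits Dlst and Dlat, and the RNA-binding proteins Matr3, Sf3b1 and Ddx5. The log2 differences of the 111 ran between 1.12 and 4.50 with a median of 2.43 and a median standard error of 0.48. The 114 probe sets hold 97 with 1 gene symbol, which name 93 genes, and 17 with no symbol or several symbols, which are not named. With each gene represented by its brightest tested probe set, 62 of 10051 genes (0.617%) were higher and 3 (0.0298%) were lower.

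The excess of higher over lower probe sets lay among the smallest p-values. Over all tested probe sets the difference was above 0 in 46.4%, with 2129 above 1 and 2089 below -1, and 47 above 3 and 45 below -3. At an unadjusted p below 0.05 there were 1301 probe sets higher (7.85%) and 783 lower (4.73%). The 3 G93A arrays all lay above the 3 control arrays in 1301 tested probe sets (7.85%) and all below them in 1760 (10.6%). Among the 114 called probe sets, 113 showed no overlap, and the exception was Sytl2. Such separation is in part given by the choice of the probe sets, so where it is named below it is no separate evidence.

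The level of the hybridization controls, transcripts of bacterial and phage genes added to every sample, moved with the genotype at this age. Its mean log2 signal was 8.66, 10.88 and 11.51 on the G93A arrays and 11.65, 12.33 and 12.08 on the control arrays (exact permutation p = 0.1, two-sided, the smallest that 3 against 3 arrays allow). For Gapdh, the log2 excess of the probe set at the 3' end over that at the 5' end, a sign of how complete the labelled RNA was, amounted to 4.63, 3.88 and 3.90 in G93A and 3.43, 3.00 and 3.66 in controls (exact permutation p = 0.1, two-sided). Neither measure overlapped between the groups. The same ratio for beta-actin amounted to 5.39, 5.27 and 4.79 in G93A and 4.88, 6.21 and 7.75 in controls (exact permutation p = 0.3, two-sided), which overlapped. G93A replicate 1 differed in its range of signals, with a highest signal of 6859 against 16811 to 55198 on the other 5 arrays of 60 days. It had 154 signals under 1 against 0 to 42 on those, and arrays of the other ages had 0 to 255. Correlations of log2 signals over the tested probe sets ran between 0.744 and 0.803 among the G93A arrays of 60 days. Among the control arrays they ran between 0.641 and 0.690, and between the genotypes they ran between 0.603 and 0.746. When the hybridization-control level was a term of the model, the counts were 1 higher, that of Ndrg1, and 0 lower. At an unadjusted p below 0.05 that model gave 567 higher and 426 lower, and the median difference of the 111 was 1.81. With the Gapdh ratio in the model, 10 were called higher and 0 lower (unadjusted 919 and 498), and that median was 2.09. All 114, chosen for their difference on these same arrays, kept their sign in both models. Without G93A replicate 1, 7 were called higher and 0 lower (unadjusted 826 and 525), with a median of 2.23. Without G93A replicate 2 the counts were 29 higher and 0 lower (unadjusted 1097 and 773). Without control replicate 3 they were 45 higher and 0 lower (unadjusted 1076 and 564), with a median of 2.27, and without control replicate 1 they were 261 higher and 6 lower. The part of array quality in these differences was not tested beyond these models.

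Within the groups, G93A replicate 1 gave the highest G93A signal in 91 of the 111 probe sets (82.0%), against 28.7% of all tested probe sets. Control replicate 3 gave the lowest control signal in 60 of the 111 (54.1%), against 34.2% of all tested. The median log2 level of the 111 was 8.83, 8.21 and 7.83 on the 3 G93A arrays and 6.45, 6.02 and 5.71 on the 3 control arrays. All tested probe sets had medians of 6.13, 6.22 and 6.45 on the G93A arrays and 6.41, 6.52 and 6.52 on the control arrays. Among the 111, the control geometric mean was under 16 in 24, between 16 and 100 in 43 and at least 100 in 44. Signals of a few units lie at the bottom of the scale, where log2 differences are large for small changes in signal.

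Markers of motor neurons and of glia were both measured on these arrays. By mean signal, the 7 motor neuron markers ranked between the percentile 21.8 of all genes (the transcription factor Isl1) and 100 (the neurofilament chain Nefl). The astrocyte markers ranked between 19.9 (Aldh1l1) and 99.1 (Aldoc), with Gfap at 43.0. The oligodendrocyte markers ranked between 18.1 (Mog) and 99.7 (Mbp), and the microglia markers between 2.56 (C1qb) and 98.7 (Csf1r), with Trem2 at 14.3. Probe sets differ in how strongly they bind, so these ranks are no measure of transcript abundance. None of the 7 motor neuron markers passed the test, and 1 of them was above 0, against 46.8% of all genes. Their median was -0.20 against -0.06 over all genes. They summed to signals of 7555, 19149 and 16973 in G93A and 24380, 28204 and 18841 in controls. That overlap rests on G93A replicate 2, which lay above control replicate 3. Most of each sum was signal of Nefl, so the sums and the Nefl values are not separate results. Nefl had signals of 6044, 16204 and 15297 in G93A and 22030, 25382 and 17125 in controls, without overlap (log2 difference -0.89 ± 0.48, SE, limma adjusted p = 0.453). The 4 probe sets of Prph, the intermediate filament peripherin, differed by between -1.12 and -0.09 (limma adjusted p from 0.298 to 0.957). In RNA pooled from many cells, fewer cells of a type and less RNA per cell cannot be told apart.

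Most astrocyte and oligodendrocyte markers had differences above 0, against 46.8% of all genes, and none passed the test. Of 10 astrocyte markers 7 were above 0 with a median of 0.55, and they summed to 5241, 4677 and 4180 in G93A and 3712, 2749 and 4302 in controls. Of 8 oligodendrocyte markers 6 were above 0 with a median of 0.74, and their summed signal of 9213, 8183 and 10493 in G93A did not overlap the 7642, 5203 and 7192 in controls. Most of each sum was signal of Mbp, with 4725, 6733 and 8395 in G93A and 6253, 4286 and 5811 in controls. Mbp alone thus overlapped. Microglial markers summed to 2765, 2123 and 2854 in G93A and 2913, 1691 and 3827 in controls, which overlapped. With the hybridization level as a term the astrocyte median was -0.29 and the oligodendrocyte median 0.21. Gfap had 2 probe sets at -0.63 ± 0.57 and 0.73 ± 0.67, and the brightest-level representative of Mbp was at 0.26 ± 0.38. Detection calls were not used, so the signals of these markers do not show that their transcripts were present. The part of other cell types in the results below was not tested.

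The targeted gene gave no call. The mouse Sod1 probe sets need not detect the human transcript, and the sources used here do not say whether they do. The brighter probe set had signals of 418, 206 and 415 in G93A and 174, 179 and 241 in controls, with overlap (0.75 ± 0.56, SE, limma adjusted p = 0.626). The other had 191, 186 and 186 in G93A and 78.5, 160 and 55.9 in controls, without overlap (1.08 ± 0.43, SE, limma adjusted p = 0.279). Both were higher in G93A on average, and neither checks the labels.

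Enzymes of lipid, glycogen and glycan metabolism were among the calls. Far1, the reductase that makes the fatty alcohols of ether lipids in peroxisomes, had signals of 126, 192 and 104 in G93A and 2.8, 6.3 and 12.3 in controls (log2 difference 4.50 ± 0.69, SE, limma adjusted p = 0.00258). Etnk1, the ethanolamine kinase that starts phosphatidylethanolamine synthesis, had 1122, 296 and 154 in G93A and 25.9, 7.4 and 36.2 in controls (4.28 ± 0.61, limma adjusted p = 0.00216). Phkb, the regulatory beta subunit of glycogen phosphorylase kinase, had 81.1, 35.2 and 99.8 in G93A and 11.8, 3.1 and 2.8 in controls (3.81 ± 0.83, limma adjusted p = 0.0262). In all 3 genes the lowest G93A array lay well above the highest control array. Fut8, the core fucosyltransferase of N-glycans, had 139, 95.6 and 68.1 in G93A and 19.8, 12.5 and 4.4 in controls (3.23 ± 0.75, limma adjusted p = 0.0415). Dhcr7, an enzyme of the last steps of cholesterol synthesis, rose by 2.43 ± 0.52, and Pgrmc1, a haem-binding membrane protein, by 2.42 ± 0.55. Oga, which removes O-linked N-acetylglucosamine from proteins, had 1564, 1088 and 510 in G93A and 122, 241 and 70.3 in controls (2.91 ± 0.46, limma adjusted p = 0.00294). Odc1 of polyamine synthesis rose by 1.88 ± 0.43. Most members of their pathways were not called. Among 10 genes of phosphatidylethanolamine and phosphatidylcholine synthesis 6 were above 0, with Etnk1 alone called. Among 21 cholesterol synthesis genes 11 were above 0, with Dhcr7 alone called. Of all genes 46.8% were above 0 and 0.617% were called higher. On the log2(signal + 16) scale, which damps low signals, Far1 differed by 2.74, Etnk1 by 3.40 and Phkb by 1.95, and Phkb was no longer called (limma adjusted p = 0.06). On that scale 97 of the 114 probe sets kept their call. Among the named genes, Eif4g2, Marcks, Trpc1, Snhg8, Gclc, Polr2f, Sytl2, Ssx2ip, Csrp2, Dlat, Ngdn and C2cd2l also lost it (limma adjusted p from 0.0509 for Gclc to 0.0928 for Csrp2).

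Regulators of transcription and of development were also called. Ptch1, the Hedgehog receptor that is itself induced by Hedgehog signalling, had signals of 861, 142 and 152 in G93A and 6.5, 17 and 49.1 in controls (3.91 ± 0.67, limma adjusted p = 0.00674). Id2, which binds bHLH transcription factors and keeps them off DNA, had 280, 186 and 120 in G93A and 7.0, 42.6 and 8.2 in controls (3.77 ± 0.56, limma adjusted p = 0.00251). Both groups were apart in each, as in nearly all called probe sets, and G93A replicate 1 was the highest. Tceal1, of the transcription elongation factor A-like family, had 205, 72.6 and 100.3 in G93A and 8.1, 5.7 and 17.4 in controls (3.62 ± 0.63, limma adjusted p = 0.00674). Btg1, an antiproliferative cofactor, had 118, 111 and 68.0 in G93A and 2.4, 15.0 and 13.5 in controls (3.61 ± 0.75, limma adjusted p = 0.0227). Further nuclear genes rose, among them Bccip, a partner of BRCA2, with 182, 145 and 167 in G93A and 24.2, 6.8 and 37.3 in controls (3.16 ± 0.73, limma adjusted p = 0.0394). The nucleosome-binding proteins Hmgn1 and Hmgn3 rose by 2.24 ± 0.39 and 1.78 ± 0.34. The shared RNA polymerase subunit Polr2f rose by 2.82 ± 0.59, the zinc finger factor Klf9 by 1.81 ± 0.38, the nucleic acid-binding protein Purg by 1.81 ± 0.35 and Ints6l, a relative of an Integrator subunit, by 2.01 ± 0.48. Of 10 Hedgehog pathway genes 6 were above 0, and next to Ptch1 the smallest unadjusted p values were those of Dhh (1.92 ± 0.65), Ihh (-1.23 ± 0.49) and Sufu (1.45 ± 0.81), none of them called. Of 18 Id and bHLH genes 9 were above 0, and Id4 stood at -1.09 ± 0.45 without a call. Over all genes 46.8% were above 0 and 0.617% were called higher.

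The promoters of Etnk1, Tsn and Id2 are shown because these genes had the smallest p among those whose called probe set is not marked as cross-hybridizing and which have 1 promoter entry. Each is the 250 bases before the annotated start in RefSeq (GRCm38.p6), 5' to 3' on the strand of the gene. Capitals mark the GC box, spelled GGGCGG, and the CCAAT box. Each was searched on both strands, and the letters of a reverse match are the reverse complement. The TATA box, spelled TATAAA, was searched on both strands too and is absent from all 3 windows. No motif overlaps another.
Etnk1 (chr6:143166980-143167229, plus strand): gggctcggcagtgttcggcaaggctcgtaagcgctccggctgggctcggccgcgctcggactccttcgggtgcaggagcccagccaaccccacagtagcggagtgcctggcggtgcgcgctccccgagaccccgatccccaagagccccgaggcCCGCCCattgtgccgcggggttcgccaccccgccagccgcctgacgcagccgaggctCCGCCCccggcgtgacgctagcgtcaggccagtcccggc
Tsn (chr1:118310729-118310978, minus strand): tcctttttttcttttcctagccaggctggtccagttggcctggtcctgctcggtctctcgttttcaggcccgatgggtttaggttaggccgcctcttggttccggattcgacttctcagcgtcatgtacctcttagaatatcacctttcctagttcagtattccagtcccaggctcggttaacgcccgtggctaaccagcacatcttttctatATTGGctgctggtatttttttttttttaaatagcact
Id2 (chr12:25096093-25096342, minus strand): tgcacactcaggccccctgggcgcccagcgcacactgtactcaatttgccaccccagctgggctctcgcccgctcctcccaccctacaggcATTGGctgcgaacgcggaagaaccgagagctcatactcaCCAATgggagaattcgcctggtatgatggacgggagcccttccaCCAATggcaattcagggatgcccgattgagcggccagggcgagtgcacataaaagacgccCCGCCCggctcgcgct
The Etnk1 window holds 2 GC boxes, 96 and 39 bases before the start, in 74.8% G and C. That of Tsn holds 1 CCAAT box, 37 bases before the start, in 47.6% G and C. That of Id2 holds 3 CCAAT boxes, 159, 120 and 76 bases before the start, and 1 GC box at 16. Of the genes called higher, 72 have entries, with 99 windows in all. A GC box lies in 63.6% of these, against 53.9% of the windows of tested genes and 32.7% of all windows. The shares for CCAAT are 39.4%, 34.5% and 33.8%, and those for TATAAA 10.1%, 7.89% and 12.4%. These are descriptions of letters and not of bound sites.

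Several called genes bind or process RNA. Elavl2, a neuronal protein that stabilizes transcripts, had signals of 364, 250 and 396 in G93A and 213, 18.7 and 3.4 in controls (3.79 ± 0.85, limma adjusted p = 0.0324), with control replicate 1 close to the G93A arrays. Ddx5, an RNA helicase, had 357, 104 and 145 in G93A and 33.0, 5.4 and 28.8 in controls on its larger called probe set (3.35 ± 0.75, limma adjusted p = 0.0324). A second called Ddx5 probe set had 562, 524 and 416 in G93A and 276, 139 and 92.3 in controls (1.70 ± 0.36, limma adjusted p = 0.0241). Both called Ddx5 probe sets kept the genotypes apart, at different levels. Its other tested probe sets differed by 0.21 ± 0.50, -0.15 ± 0.48, 0.43 ± 0.28 and -0.44 ± 0.37, none of them called. Zranb2, a splicing regulator, had 635, 459 and 193 in G93A and 86.1, 107 and 6.5 in controls (3.29 ± 0.75, limma adjusted p = 0.0361). Trnt1, which adds the CCA end to transfer RNAs, had 151, 111 and 61.2 in G93A and 19.9, 5.6 and 13.2 in controls (3.15 ± 0.72, limma adjusted p = 0.0366). Tsn, the nucleic acid-binding protein translin, had 282, 190 and 140 in G93A and 37.3, 9.8 and 42.3 in controls (2.97 ± 0.44, limma adjusted p = 0.00251). Matr3, a nuclear matrix protein whose gene is mutated in some families with amyotrophic lateral sclerosis, had 1340, 967 and 690 in G93A and 204, 167 and 156 in controls (2.47 ± 0.43, limma adjusted p = 0.00674). Its control arrays lay within a narrow band, and all G93A arrays were far above it. The splicing proteins Srsf3, Sf3b1 and Luc7l3 rose by 3.02 ± 0.59, 2.38 ± 0.54 and 1.98 ± 0.46. The noncoding RNAs Snhg8, a host of small nucleolar RNAs, and Meg3, an imprinted transcript, rose by 3.15 ± 0.72 and 2.15 ± 0.42. Snhg8 had 96.1, 69.1 and 68.6 in G93A and 11.5, 11.9 and 4.8 in controls. Of 55 splicing factors and hnRNP proteins, 39 were above 0 (70.9%, against 46.8% of all genes) with a median of 0.40, and 2 were called by their representative. That median was 0.07 with the hybridization level as a term, against 0.03 over all genes there.

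Translation and selenoprotein genes were also called. Eif4g2, an initiation factor of cap-independent translation, had signals of 99.2, 26.1 and 61.9 in G93A and 3.3, 2.9 and 3.3 in controls (4.10 ± 0.92, limma adjusted p = 0.0324). The brightest Eif4g2 probe set, at a mean log2 level of 10.74 in G93A and 10.30 in controls, differed by 0.44 ± 0.35 and was not called. The large difference thus sits on a probe set whose control signals were near the bottom of the scale. Eef1b2, an exchange factor of translation elongation, had 920, 676 and 563 in G93A and 232, 188 and 112 in controls (2.06 ± 0.36, limma adjusted p = 0.00752). Secisbp2l, a relative of the protein that binds selenocysteine insertion elements, rose by 2.73 ± 0.59, and Selenoh, a nucleolar selenoprotein, by 2.53 ± 0.44. Of 33 translation factors 19 were above 0 with a median of 0.42. Over all genes 46.8% were above 0, 0.617% were called higher and the median was -0.06. Of 43 cytosolic ribosomal proteins none was called and 28 were above 0 (median 0.25), and of 65 mitochondrial ribosomal proteins none was called and 33 were above 0 (median 0.02).

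Calls in central carbon metabolism and mitochondria included subunits of the 2-oxoacid dehydrogenase complexes, a cytosolic dehydrogenase and carriers of the inner membrane. Dlst, the succinyltransferase of the 2-oxoglutarate dehydrogenase complex, had signals of 201, 76.6 and 196 in G93A and 17.5, 13.7 and 16.3 in controls (3.20 ± 0.66, limma adjusted p = 0.0227). Dlat, the acetyltransferase of pyruvate dehydrogenase, had 557, 454 and 310 in G93A and 214, 157 and 146 in controls (1.33 ± 0.32, limma adjusted p = 0.0462). Mdh1, the cytosolic malate dehydrogenase, had 607, 318 and 253 in G93A and 142, 36.2 and 99.0 in controls (2.20 ± 0.51, limma adjusted p = 0.0417). All 3 kept the genotypes apart, as nearly all called probe sets did. In the list of 21 pyruvate dehydrogenase and TCA cycle genes these were the 3 calls and 13 were above 0. Over all genes 0.617% were called higher and 46.8% were above 0. Because the list was chosen with earlier results of these data known, its share of calls does not show that it stands out. In the same list Idh3g, a subunit of isocitrate dehydrogenase, stood at -1.32 ± 0.33 with 1839, 2337 and 2340 in G93A and 4656, 3866 and 8755 in controls (limma adjusted p = 0.0597). Slc25a3, the phosphate carrier, had 3746, 3153 and 1900 in G93A and 1218, 1178 and 610 in controls (1.56 ± 0.36, limma adjusted p = 0.0402). A probe set of Slc25a4, the adenine nucleotide carrier, had 1131, 798 and 762 in G93A and 326, 277 and 296 in controls (1.56 ± 0.31, limma adjusted p = 0.0217). Slc25a36, a pyrimidine nucleotide carrier, rose by 1.82 ± 0.35. All control signals of Slc25a3 and of this Slc25a4 probe set lay above the median signals of their arrays.

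In the respiratory chain, Atp5c1, the gamma subunit of ATP synthase, had 2000, 1429 and 699 in G93A and 382, 372 and 288 in controls (1.87 ± 0.44, limma adjusted p = 0.0415). Of 36 subunits of complexes II to V, 17 were above 0 with a median of -0.08, against 46.8% and -0.06 over all genes. At an unadjusted p below 0.05 there were 8 higher and 6 lower. Of 33 complex I subunits none was called and 16 were above 0, with 4 higher and 7 lower at that unadjusted p (background over all genes 8.04% higher and 4.57% lower). Within ATP synthase the members of smallest p differed in sign, with Atp5a1 at 1.53 ± 0.39 and Atp5h at 1.06 ± 0.32 against Atp5d at -1.18 ± 0.37 (limma, none of these 3 called).

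The secretory pathway contributed subunits of several membrane machines. Rpn1, a subunit of the oligosaccharyltransferase that attaches N-glycans, had 3 called probe sets. The first had signals of 727, 513 and 377 in G93A and 131, 112 and 94.7 in controls (2.22 ± 0.34, limma adjusted p = 0.00258). The second had 537, 302 and 264 in G93A and 81.2, 130 and 76.9 in controls (1.91 ± 0.40, limma adjusted p = 0.0228), and the third 636, 351 and 236 in G93A and 127, 130 and 122 in controls (1.57 ± 0.35, limma adjusted p = 0.0317). All 3 bear the suffix of probe sets that may cross-hybridize. Sec11c of the signal peptidase rose by 2.12 ± 0.43 and Emc7 of the endoplasmic reticulum membrane complex by 2.54 ± 0.40. Atp6v1b2, a subunit of the vacuolar proton pump, had 292, 163 and 30.8 in G93A and 3.9, 10.6 and 7.5 in controls (4.07 ± 0.80, limma adjusted p = 0.0167), a wide spread on the G93A side. The small GTPase Rab14 of endosomes rose by 1.73 ± 0.35, and the Rab7 regulator Tbc1d15 by 2.81 ± 0.61. Sytl2, a Rab27 effector, differed by 2.76 ± 0.66 with 261, 249 and 84.6 in G93A and 129, 9.8 and 13.9 in controls. It was the called probe set with overlap. Serinc1, a membrane protein of serine lipids, rose by 2.04 ± 0.48. Among 24 Rab GTPases only Rab14 was called and 11 were above 0 (over all genes 0.617% were called higher and 46.8% were above 0). Among 17 proton pump genes 10 were above 0, and Atp6v0b stood at -2.81 ± 0.80 and Atp6ap2 at 3.19 ± 1.17 without a call.

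Some regulators of the actin cytoskeleton were called higher, while the median of their list was close to that of all genes. Enah, which promotes filament growth at the leading edge of growth cones, had signals of 1139, 499 and 514 in G93A and 248, 25.9 and 16.3 in controls (3.82 ± 0.72, limma adjusted p = 0.0148). Marcks, a membrane-bound substrate of protein kinase C that binds actin, had 350, 73.0 and 68.0 in G93A and 35.1, 13.2 and 3.4 in controls (3.37 ± 0.77, limma adjusted p = 0.0372). Its relative Marcksl1 had 1356, 234 and 338 in G93A and 131, 34.6 and 40.8 in controls (3.06 ± 0.61, limma adjusted p = 0.0217). In each of the 3 genes G93A replicate 1 and control replicate 1 were the highest of their groups. Of 24 actin regulators 12 were above 0 (46.8% of all genes were) with a median of -0.05, close to that of all genes. These 3 were called, against 0.617% of all genes called higher. The list was chosen with earlier results of these data known, so that share does not show that it stands out. Cdc42, a GTPase of cell polarity, had 2 called probe sets. One had 714, 402 and 497 in G93A and 143, 228 and 111 in controls (1.77 ± 0.40, limma adjusted p = 0.0366), and the other 555, 578 and 322 in G93A and 172, 242 and 106 in controls (1.52 ± 0.32, limma adjusted p = 0.0250). Rock1, a kinase downstream of RhoA, rose by 2.31 ± 0.55, Septin7 by 1.82 ± 0.38, the LIM protein Csrp2 by 2.49 ± 0.58, the calponin Cnn3 by 1.64 ± 0.33 and Ssx2ip, a centrosomal protein, by 2.63 ± 0.61. Of 26 dynein, dynactin and kinesin motor genes none was called, and 17 were above 0 with a median of 0.20.

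Protein turnover and stress genes were called one by one. Dcun1d5, which helps attach NEDD8 to cullins, had signals of 88.1, 76.0 and 52.4 in G93A and 2.4, 8.0 and 2.1 in controls (4.36 ± 0.75, limma adjusted p = 0.00674). Uba3, the catalytic subunit of the NEDD8-activating enzyme, had 795, 635 and 316 in G93A and 226, 183 and 85.4 in controls (1.83 ± 0.39, limma adjusted p = 0.0254). These 2 act in the same pathway, and both groups were apart in each, as in nearly all called probe sets. The deubiquitinase Usp9x rose by 2.92 ± 0.66, the ubiquitin ligase Mkrn1 by 2.47 ± 0.39 and Crbn, a substrate receptor of a cullin ligase, by 1.53 ± 0.35. Hspb8, a small heat shock protein, had 89.9, 96.2 and 124 in G93A and 13.1, 7.3 and 12.6 in controls (3.27 ± 0.72, limma adjusted p = 0.0304). Its other probe sets were at -0.32 ± 0.62 and -0.76 ± 0.82. Gclc, the catalytic subunit of glutathione synthesis, rose by 2.85 ± 0.68, close to the threshold (limma adjusted p = 0.0497). Of 43 ubiquitin and NEDD8 genes 26 were above 0 with a median of 0.39, and 3 were called, against 0.617% of all genes called higher. As this list was chosen with earlier results of these data known, that share does not show that it stands out. Of 53 chaperones 34 were above 0 with a median of 0.40, and none was called by its representative, with 11 higher and 1 lower at an unadjusted p below 0.05 (over all genes 8.04% were higher and 4.57% lower at that p, and 46.8% were above 0). Of 36 proteasome subunits 23 were above 0 with a median of 0.32, and none was called, with 7 higher and 2 lower at that p. With the hybridization level as a term these 3 medians were -0.03, 0.06 and 0.04. Of 34 antioxidant genes 18 were above 0 (median 0.08), and none was called by its representative.

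Further calls were of receptors, transporters and signalling or calcium-binding proteins, which no fixed list holds together. Lrrn1, a neuronal leucine-rich repeat protein, had signals of 212, 81.3 and 67.6 in G93A and 13.3, 7.9 and 10.5 in controls (3.35 ± 0.72, limma adjusted p = 0.0260). Trpc1, a cation channel, had 41.5, 50.7 and 76.3 in G93A and 4.6, 9.4 and 3.6 in controls (3.34 ± 0.73, limma adjusted p = 0.0297, and 1.70 on the log2(signal + 16) scale without a call). Ephb3, an ephrin receptor, had 105, 119 and 148 in G93A and 19.8, 24.0 and 21.4 in controls (2.50 ± 0.45, limma adjusted p = 0.00938). In Trpc1 and Ephb3 G93A replicate 1 was the lowest of its group, unlike in most called probe sets. The bicarbonate transporter Slc4a10 rose by 2.86 ± 0.69, the amino acid transporter Slc38a2 by 1.65 ± 0.38, the sheddase Adam10 by 2.69 ± 0.54 and the orphan receptor Gprc5b by 2.59 ± 0.56. The calcium-binding proteins Anxa5 and Sri rose by 2.38 ± 0.51 and 2.18 ± 0.47, and the kinase Csnk1d by 1.69 ± 0.35. Voltage-gated channels gave no call, with 10 of 21 above 0 (over all genes 0.617% were called higher and 46.8% were above 0). Glutamate receptors gave none either: 1 of 10 was above 0, with a median of -0.71, and Grin2d and Grin3b were at -2.12 ± 0.98 and -0.90 ± 0.42. That median was -0.31 with the hybridization level as a term and -0.37 without G93A replicate 1. Of 20 synaptic vesicle and SNARE genes 7 were above 0 with a median of -0.27, and none was called.

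Some of the called genes are known mainly from cells other than motor neurons. Ndrg1, a stress-induced protein abundant in Schwann cells and oligodendrocytes, had the smallest p of all, with signals of 1707, 896 and 927 in G93A and 183, 170 and 136 in controls (2.80 ± 0.34, limma adjusted p = 0.000245). Tyrobp, the signalling adaptor of microglial receptors, had 106, 159 and 126 in G93A and 10.5, 17.2 and 33.8 in controls (2.81 ± 0.58, limma adjusted p = 0.0227). Pmp22, a protein of peripheral myelin, had 2228, 1014 and 884 in G93A and 362, 340 and 279 in controls (1.95 ± 0.36, limma adjusted p = 0.0114). Ogn and Tgfbi, both of extracellular matrix, rose by 2.71 ± 0.50 and 2.37 ± 0.46. Of the 9 microglia markers 4 were above 0 with a median of -0.12, against 46.8% and -0.06 over all genes. Ctss stood next to Tyrobp at 1.45 ± 0.35 with 701, 367 and 451 in G93A and 213, 176 and 151 in controls (limma adjusted p = 0.0534). Csf1r and Trem2 stood at -0.42 ± 0.40 and -0.60 ± 0.88. The summed microglial signal overlapped between the groups, as given above. With the hybridization level as a term Tyrobp differed by 3.56 and Ndrg1 by 2.43. Among genes of other or uncertain role, the called difference was 3.91 ± 0.84 for 4931406C07Rik, with 140, 105 and 69.2 in G93A and 17, 4.6 and 3.8 in controls. The difference was 3.59 ± 0.74 for Odr4, with 233, 188 and 101 in G93A and 67.5, 4.6 and 8.2 in controls. Both kept the genotypes apart, as nearly all called probe sets did. Ankrd10, Ttc33, Ivns1abp, 2410004B18Rik, Wdr6, Gkap1, Mettl9 and Ngdn complete the named calls, with differences between 1.28 and 2.83.

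**Figure D1:**
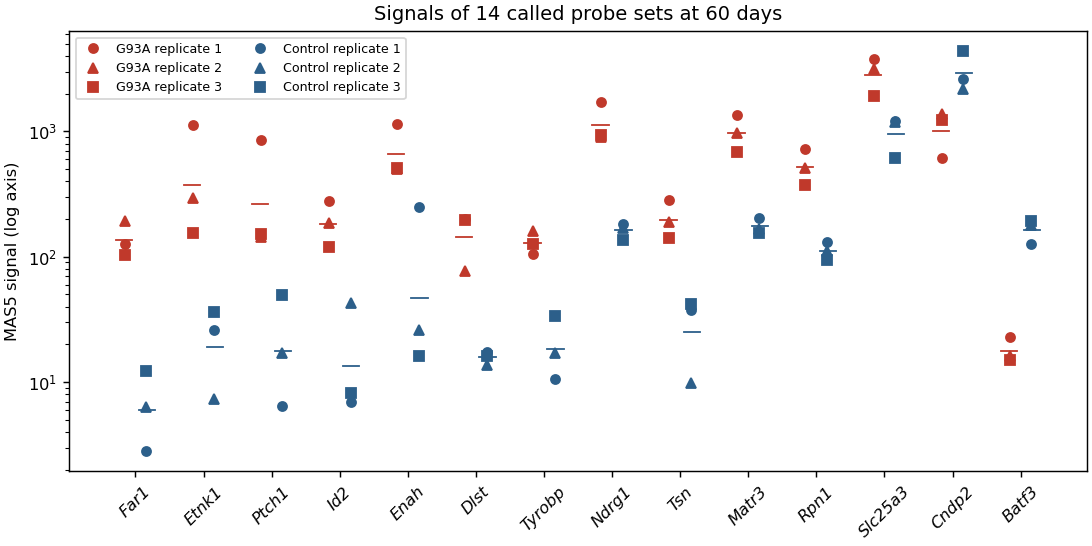
Signals of 14 called probe sets on the 3 G93A arrays (red) and 3 control arrays (blue) at 60 days, on a log axis, with symbols for replicates and lines at the geometric means. The control signals of Far1 lie between 2.8 and 12.3, near the bottom of the scale, and those of Slc25a3 between 610 and 1218, and Cndp2 and Batf3 are lower in G93A.

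Lower transcripts were few. Batf3, a transcription factor known from dendritic cells, had signals of 23.1, 16.3 and 14.9 in G93A and 126, 180 and 194 in controls (-3.20 ± 0.76, limma adjusted p = 0.0469). Cndp2, a cytosolic dipeptidase, had 613, 1363 and 1235 in G93A and 2634, 2166 and 4354 in controls (-1.53 ± 0.34, limma adjusted p = 0.0335). C2cd2l, a lipid transfer protein at contacts of the endoplasmic reticulum with the plasma membrane, had 179, 214 and 210 in G93A and 450, 547 and 441 in controls (-1.25 ± 0.30, limma adjusted p = 0.0479). The groups did not overlap in any of the 3, as in nearly all called probe sets. Under median centring of each array the count of lower probe sets was 0 (407 at an unadjusted p below 0.05) and that of higher ones 146, since centring moved the median over all genes from -0.06 to 0.15. With further scales of the same 18 arrays the lower calls were 7 with log2(signal + 16), 10 with signals under 16 set to 16, and 11 after quantile normalization.

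Just outside the threshold stood genes with at least 1.5-fold differences and no overlap, given here as values. On the higher side these were Aak1, Eps15, Uri1, Ctss, Rheb, Rtn4, Nek7, Selenot, Cd33 and Sos2, with log2 differences between 1.22 and 3.74 and limma adjusted p between 0.0505 and 0.0604. Eps15 and Aak1, both of clathrin endocytosis, were at 1.66 ± 0.40 and 1.22 ± 0.29, and Rtn4, the neurite outgrowth inhibitor Nogo, at 1.90 ± 0.47. On the lower side were Idh3g, Bscl2, Lin7b, Slc6a5, Hbb-b2, Mark4, Klhdc3, Adam11, Cyp7a1 and Cer1, between -3.37 and -1.25 (limma adjusted p from 0.0597 to 0.103). Slc6a5, the glycine transporter of inhibitory terminals, had 36.6, 8.8 and 13.0 in G93A and 109, 56.6 and 144 in controls (-2.58 ± 0.67). Bscl2, the lipid droplet protein seipin whose gene is mutated in a hereditary motor neuropathy, had 1340, 2461 and 1907 in G93A and 3921, 4590 and 4667 in controls (-1.25 ± 0.31). Hbb-b2, a beta globin, had 45.1, 33.5 and 22.8 in G93A and 173, 190 and 169 in controls (-2.44 ± 0.64).

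Many genes on the array have several probe sets, and these often disagreed at 60 days. Of the 93 called genes, 33 had 1 tested probe set and 60 had others, 123 in all. Of these 123, 74 (60.2%) had the same sign as the called probe set of smallest p, against 56.0% of all 7407 pairs of probe sets of 1 gene. An unadjusted p below 0.05 in the same direction was reached by 28 (22.8%), against 7.85% higher over all tested probe sets, and 4 were called themselves. The median log2 difference was 2.47 for the leading probe sets and 0.33 for the others. Leading probe sets had median levels of 8.52 in G93A and 5.93 in controls, and the others 6.67 in G93A and 6.38 in controls. Without probe sets marked _x_at or _s_at, 33 of 61 others (54.1%) had the same sign, against 54.3% of such pairs. Cross-hybridizing probe sets made up 15.8% of the called ones and 7.61% of those tested.

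In 22 of the 60 genes all other probe sets had the sign of the leading one, and in 18 none had. Sf3b1 was among the most even, with differences of 2.38 ± 0.54, 2.26 ± 0.79 and 1.5 ± 1.24 over its 3 probe sets. Hmgn1 had 2.24 ± 0.39, 2.94 ± 0.94 and 1.26 ± 0.44, Matr3 had 2.47 ± 0.43, 0.92 ± 0.38 and 3.71 ± 1.2, and Tgfbi had 2.37 ± 0.46, 1.66 ± 0.77 and 0.96 ± 0.28. The brightest Matr3 probe set, at 10.93 in G93A and 10.01 in controls, thus held the smallest of its 3 differences. Mettl9 had 1.76 ± 0.40 and 1.62 ± 0.52, Btg1 had 3.61 ± 0.75 and 1.31 ± 0.40, and Ankrd10 had 2.83 ± 0.60 and 1.11 ± 0.34. All probe sets of these 7 genes were higher in G93A. Ndrg1 was at 2.80 ± 0.34 on its called probe set and between 0.82 and 1.14 on the other 3. Rpn1, with 3 called probe sets, had others at 1.57 ± 0.88 and -0.11 ± 0.80. The called Ndrg1 probe set is also of the cross-hybridizing kind.

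Other genes were split. The 2 further Etnk1 probe sets stood at -0.24 ± 0.97 and -1.18 ± 1.12, and the second Id2 probe set at -1.80 ± 1.11, against the called 4.28 and 3.77. Those of Dlst and Dcun1d5 were at -1.37 ± 0.66 and -1.11 ± 0.99, that of Atp5c1 at -1.14 ± 1.13 and that of Polr2f at -1.80 ± 0.75. Below 0 too were all other probe sets of Atp6v1b2, Emc7, Gclc, Hspb8, Trnt1 and Secisbp2l, between -0.98 and -0.30. The same held for Sri, Hmgn3, Tbc1d15, Csnk1d, Ngdn and Wdr6, between -1.15 and -0.08. The unadjusted p of Dlst was 0.0488 and that of Polr2f 0.0238, and the others were above 0.1. For some genes the brightest probe set had the other sign, without a call. Klf9 stood at -0.68 ± 0.37 on a probe set at 12.25 in G93A and 12.93 in controls, Slc25a4 at -0.62 ± 0.40 at 12.75 in G93A and 13.37 in controls, and Meg3 at -0.79 ± 0.37 at 12.68 in G93A and 13.47 in controls. Mdh1 had 1 brighter probe set at -0.10 ± 0.34 and another at 1.01 ± 0.39. Far1 had further probe sets at 1.34 ± 0.49, 1.36 ± 1.2 and -1.59 ± 1.55. Whether the probe sets of a gene report different transcript ends was not tested.

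**Figure D2:**
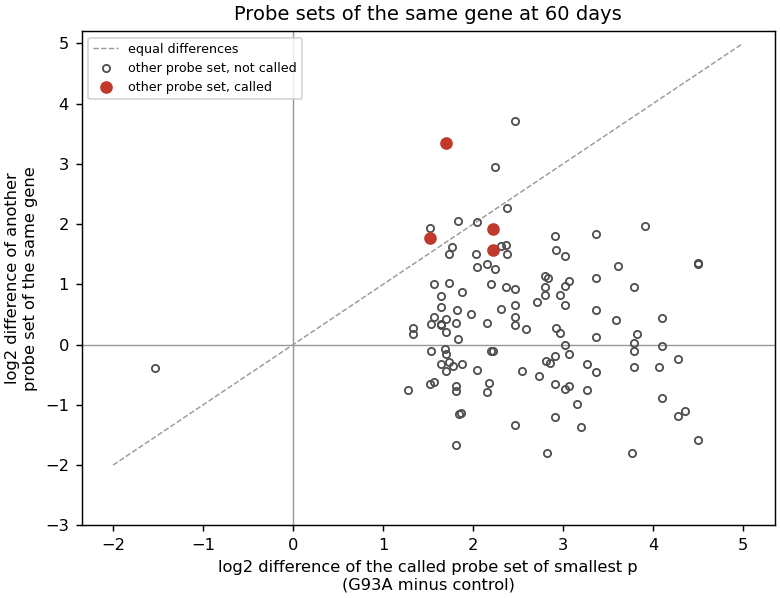
Each point is another tested probe set of a called gene, with the log2 difference of the gene's called probe set of smallest p on the x axis and its own on the y axis (G93A minus control, 60 genes, 123 points). Most points lie below the dashed line of equal differences, 74 share the sign of the leading probe set, and the 4 red points were called.

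The same probe sets were then read in the arrays of 90 and 120 days, which share no animal with those of 60 days. At 90 days 95 of the 111 probe sets (85.6%) were above 0, against 48.8% of all tested, with a median of 0.44, and 16 (14.4%) were below 0, against 51.2% of all tested. None of the 111 was called at 90 days, where 0 of the 16565 were (0%; unadjusted 380 higher and 376 lower), and 7 were higher at an unadjusted p below 0.05 (6.31% against 2.29% of all tested). At 120 days 100 of the 111 (90.1%) were below 0, against 45.5% of all tested, with a median of -0.72. None was called there, where 4 of 16565 were (0.0241%), and 41 were lower at an unadjusted p below 0.05 (36.9% against 5.98% of all tested). The median difference of these probe sets thus had opposite signs at 60 and 120 days. The 111 are not independent of each other, since they share arrays.

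The group levels show which mice differed. The median log2 level of the 111 was 8.37 for G93A and 5.56 for controls aged 60 days, 8.37 for G93A and 8.05 for controls aged 90 days, and 7.39 for G93A and 8.13 for controls aged 120 days. The controls of 60 days were the lowest of the 6 groups in 106 of the 111 (95.5%), against 18.1% of all tested probe sets. The G93A mice of 60 days were the highest group in 22. The probe sets were chosen for their difference at 60 days, so a low control level at that age is in part given by the choice. Far1 averaged 7.09, 6.37 and 5.98 in G93A and 2.59, 5.77 and 6.25 in controls of 60, 90 and 120 days. Tyrobp differed from this pattern, with 7.01, 6.19 and 9.95 in G93A and 4.19, 4.76 and 7.44 in controls of these ages. Hybridization controls over the same groups averaged 10.35 for G93A and 12.02 for controls aged 60 days, 10.17 for G93A and 10.92 for controls aged 90 days, and 12.62 for G93A and 12.63 for controls aged 120 days. With that level in the model, 6 probe sets passed the test of the difference at 60 days against later ages, described next.

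**Figure D3:**
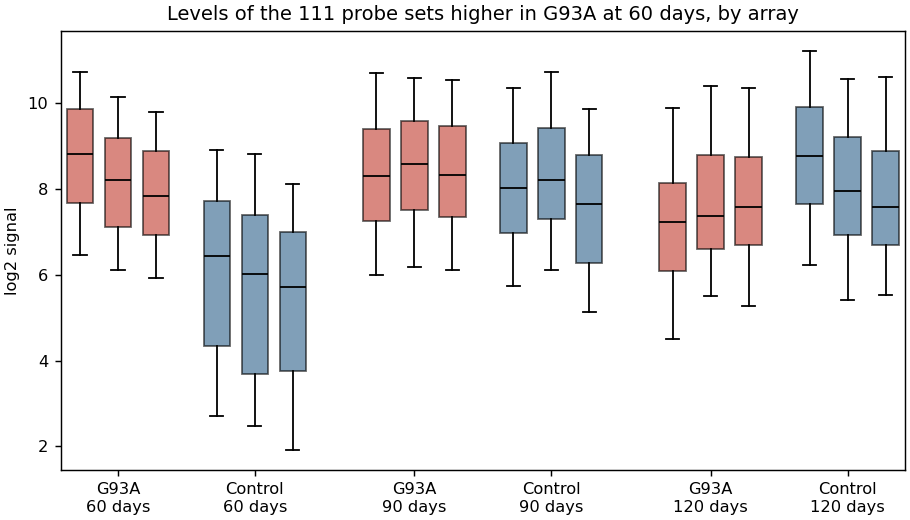
Log2 signals of the 111 probe sets called higher at 60 days, 1 box per array, with G93A (red) left of control (blue) at each age; boxes show quartiles and medians, and whiskers the 5th to 95th percentile. The 3 control arrays of 60 days lie lowest, with medians of 5.71 to 6.45, and the G93A arrays of 60 days have medians of 7.83 to 8.83.

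Whether a difference was larger at 60 days than later was tested directly, as the genotype difference at 60 days minus the mean of those at 90 and 120 days. In that test 52 probe sets passed (0.314%), all with a larger value at 60 days, and 42 of them were among the 114. These 42 are 36.8% of the 114 and 80.8% of the 52, and both comparisons share the arrays of 60 days. Without G93A replicate 1 of 60 days 4 passed, and without control replicate 1 of 60 days 140. Among the named genes, the test passed for Atp6v1b2 (5.78, limma adjusted p = 0.0102), Etnk1 (4.70, limma adjusted p = 0.00625), Id2 (3.44, limma adjusted p = 0.0255) and Ndrg1 (2.62, limma adjusted p = 0.00625). It did not pass for Enah (3.95, limma adjusted p = 0.0501), Marcks (2.78, limma adjusted p = 0.227) or Tyrobp (0.84, limma adjusted p = 0.688). Batf3, Cndp2 and C2cd2l did not pass either, at -3.36, -1.54 and -0.86.

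The gene lists are described by their medians, beside the median of -0.06 over all 10051 genes. Of all these genes 46.8% were above 0 and 0.617% were called higher. Mitochondrial import and carriers, translation factors, splicing factors, chaperones, ubiquitin and NEDD8 genes and endoplasmic reticulum stress genes had medians between 0.38 and 0.47. With the hybridization level as a term the same lists had medians between -0.03 and 0.28. Of 27 endoplasmic reticulum stress and folding genes, 19 were above 0 and none was called, with Derl1 at 1.21 ± 0.31, Dnajb9 at 1.45 ± 0.47 and P4hb at 0.99 ± 0.36. Immediate early genes had a median of -0.38, and 9 of 24 were above 0, while Fos stood at 2.02 ± 0.53 and Dusp1 at 1.77 ± 0.57. Of 23 mouse orthologues of genes mutated in amyotrophic lateral sclerosis 13 were above 0, and Matr3 alone had a called probe set. Among the others Hnrnpa2b1 stood at 1.83 ± 0.49, Ubqln2 at 1.85 ± 0.55, Vcp at 1.65 ± 0.65 and Tuba4a at -0.97 ± 0.41, none of them called. Autophagy and lysosome genes had 18 of 33 above 0 and none called, with Ctsd at 1.48 ± 0.37. Apoptosis regulators had 10 of 22 above 0, interferon and antigen presentation genes 12 of 23, and axon injury genes 10 of 20, with none called. No list was tested as a set, and the lists were chosen with earlier results of these data known.

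**Figure D4:**
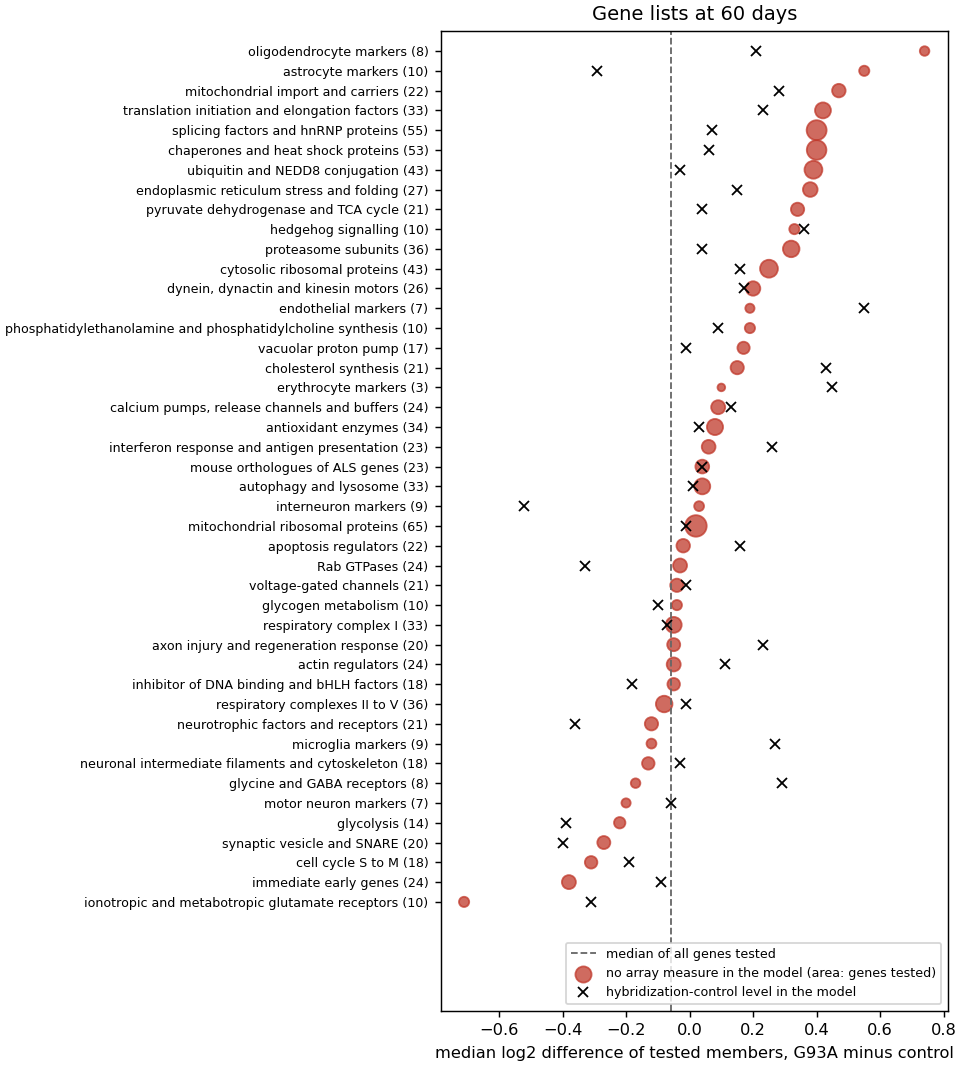
Median log2 difference (G93A minus control at 60 days) of the tested members of each gene list, with the number tested in brackets; red points are from the model of the 6 group means and crosses from the model that also holds the hybridization-control level. The red points run between -0.71 for glutamate receptors and 0.74 for oligodendrocyte markers, around a dashed line at -0.06 for all genes. The cross of oligodendrocyte markers lies at 0.21 and that of glutamate receptors at -0.31.

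**Figure D5:**
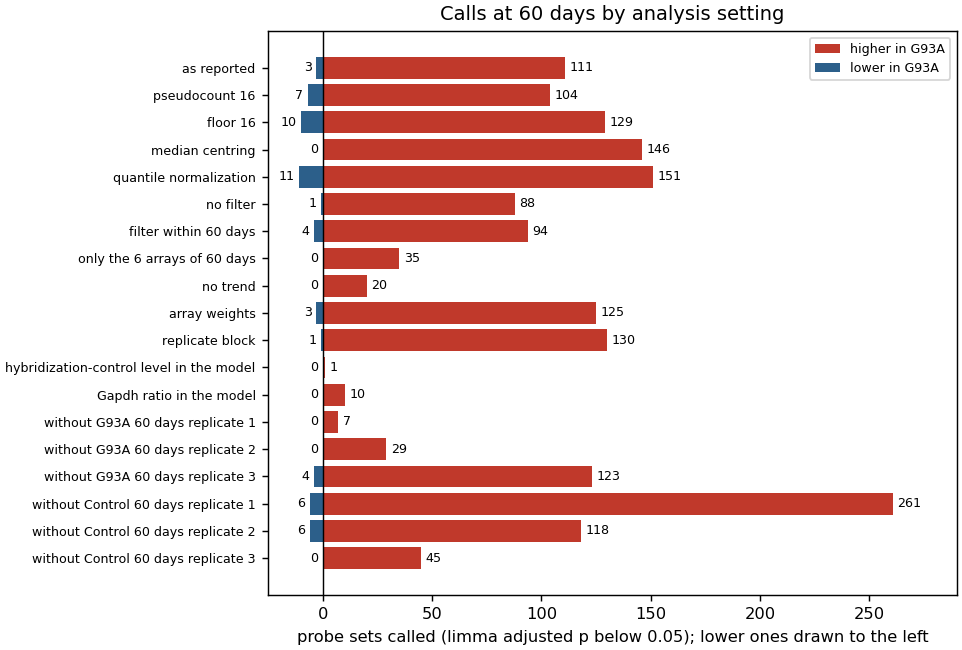
Number of probe sets called higher (red, to the right) and lower (blue, to the left) in G93A at 60 days, as reported and under 18 alternatives, with each array of 60 days left out in turn at the bottom. The count of higher ones runs between 1 with the hybridization level as a term and 261 without control replicate 1.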

How the data were processed

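The deposited values are 1 signal per probe set and array, intensities that the authors computed with MAS5, per the submitters' processing notes. The sources used here do not give its settings. Every array has a 2% trimmed mean between 100 and 100.1, so arrays were scaled alike before deposit. Samples were grouped by their titles. Signals under 1 (0.167% of the values at 60 days) were set to 1 and log2 was taken. Of 22690 probe sets, 64 controls were left out, and the 16565 with a signal above the array median on at least 3 of 18 arrays were tested. limma 3.58.1 in R 4.3.3 fitted the means of the 6 groups of age and genotype, with 12 residual degrees of freedom and an empirical Bayes trend, and p-values were adjusted by Benjamini-Hochberg over all tested probe sets. The median standard error was 0.694. The filter reads all groups, so a probe set high in 1 group can pass through it.

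Genes were named from the platform's annotation, where 20380 probe sets have 1 symbol, 691 several and 1555 none, and probe sets without exactly 1 symbol are not named. A gene is represented by its brightest tested probe set, preferring those not marked _x_at. Array quality was compared by exact permutation tests. The members and gene lists were chosen with earlier results of these data known. Every called gene may be named, with array values for the 25 largest differences and for genes with several called probe sets. Genes not called are the 10 of smallest p in each direction with at least 1.5-fold difference and no overlap, up to 4 members of each list, and Sod1, Prph, Nefl, Gfap and Mbp. Alternatives changed the floor, scaling, filter, arrays, weights and model terms. The procedure was tested on simulated data.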

Additional observations from a re-analysis of the deposited data

Results flagged for a closer look

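For 32 named genes the genotype difference at 60 days exceeded the mean of those at 90 and 120 days, in a test of that difference itself (limma, adjusted p from 0.00625 to 0.0469). The values are log2 differences of differences, from 18 arrays. Among metabolic, mitochondrial and carrier genes they were Far1 4.34, Etnk1 4.70, Dlst 4.07, Dlat 1.76, Oga 3.29, Slc25a3 2.06, Slc25a4 1.88 and Slc25a36 2.21. Among membrane, secretory and trafficking genes they were Atp6v1b2 5.78, Emc7 2.90, Sec11c 2.51, Rpn1 2.71 and Rab14 2.15. Regulators and signalling genes had Ptch1 3.90, Id2 3.44, Tceal1 3.78, Purg 2.44, Hmgn3 2.17, Csnk1d 2.39, Ephb3 3.16 and Lrrn1 4.33. RNA-binding and translation genes had Elavl2 4.66, Tsn 2.83, Matr3 2.89 and Eef1b2 2.38. Protein turnover genes had Uba3 2.50, Mkrn1 2.78 and Crbn 1.99, and the remaining genes had Ndrg1 2.62, Selenoh 2.74, Septin7 2.18 and 2410004B18Rik 2.32. The hybridization-control level differed between the genotypes by -1.67 at 60 days, and its part in these values was not tested beyond the model that holds it, in which 6 of all probe sets passed.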

How the results depend on the processing

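As reported, 111 probe sets were higher and 3 lower in G93A at 60 days, and 52 had a larger difference at 60 days than later. For the 3 counts in that order, log2(signal + 16) gave 104, 7 and 83, a floor of 16 gave 129, 10 and 90, median centring 146, 0 and 95, and quantile normalization 151, 11 and 57. No filter on low signals gave 88, 1 and 47, limma array weights 125, 3 and 97, and no trend in the empirical Bayes step 20, 0 and 0 (unadjusted 1112, 810 and 1762). With only the 6 arrays of 60 days, 35 were higher and 0 lower (unadjusted 1143 and 910). The hybridization-control level in the model gave 1, 0 and 6, and the Gapdh ratio 10, 0 and 67. Leaving out 1 array at a time gave 7 to 261 higher, 0 to 10 lower and 4 to 140 for the comparison with later ages. The replicate numbers did not pair the samples, since same-numbered arrays had correlated deviations of -0.116 to 0.0576, and with the replicate block the counts were 130, 1 and 42.

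None of the 93 named called genes changed sign under any alternative in which it was tested, and 78 kept their call in 15 or more. There were 30 such alternatives, or 29 for genes such as Trpc1 and Dcun1d5 that did not pass the filter within 60 days. The genes were chosen for their difference on these same arrays, and 113 of the 114 called probe sets showed no overlap. Leaving out an array or changing the floor could thus hardly reverse a sign, and the kept signs are no separate evidence. Among genes that were not called, Nefl was 0.00 after quantile normalization. Prph was 0.12 under median centring, 0.00 with array weights and 0.01 with the Gapdh ratio, and -0.55 to 0.18 without 1 array. Gfap was -1.01 to 0.02 without 1 array. The cause of these changes was not tested. The 3 arrays per group and low control signals limit the precision, and detection calls were not used.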
